A study of Rattus norvegicus with 46 samples.

Results

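The villus tops of iron-deficient rats were set against those of control rats, on 8 of the 46 arrays of a study of iron absorption in the rat duodenum. The arrays were chosen by their titles alone, 4 for iron deficiency and 4 for controls, and every probe set that was not an array control was considered. The iron-deficient animals were Wistar rats (++) that received a low iron diet and lost 2 to 3 ml of blood every 3 days over 4 weeks. The controls were Wistar rats (++) kept on a normal diet, and the labels do not say whether they were bled or handled in the same way. Rats of both groups were 1 month old when they were divided, and all were fasted overnight before they were killed. A short segment of duodenum near the pylorus was cut on a cryostat across the crypt-villus axis. The sections from the villus top and from the villus bottom were pooled separately, with 1 array per rat and segment. Diet and bleeding were given together, so their contributions cannot be told apart.

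Iron enters the body through the enterocytes of the duodenal villus. Dietary ferric iron is reduced at the brush border by Cybrd1 (duodenal cytochrome b) and carried in by the ferrous iron transporter Slc11a2 (DMT1). It leaves across the basolateral membrane through ferroportin (Slc40a1), with the copper-dependent oxidase hephaestin (Heph) beside it. Enterocytes are born in the crypt and mature as they move up, so the villus top holds the oldest absorptive cells. In mice, the hypoxia-inducible factor HIF-2 is known to raise the transcription of Slc11a2 and Cybrd1 in the duodenum when iron is short.

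Levels are log2 intensities after the addition of 43.5 intensity units and quantile normalization, and differences are iron-deficient minus control on that scale. Of 31042 probe sets, 24746 were bright enough on at least 3 of the 22 villus top arrays to be tested, and 17539 of those name exactly 1 gene. Per-rat values are listed for rats 1 to 4 in order. Control rats 1 and 2 gave almost the same readings, with a robust SD of their differences of 0.145, against 0.23 to 0.59 for 11 other pairs of rats within these groups. They were averaged and counted as 1 sample, which left 4 iron-deficient and 3 control samples. Whether they came from 1 animal is not known. Array medians as deposited were 622 to 700.1 intensity units in iron-deficient rats and 634 to 700.6 in control rats. Epithelial markers were strong in every array, with a mean level of 16.23 to 16.65 over 11 enterocyte markers in iron-deficient rats and 16.67 to 17.01 in control rats. Crypt markers were low, at 9.64 to 11.34 in iron-deficient rats and 10.77 to 11.18 in control rats, over 5 genes. Xist was high in 0 of 4 iron-deficient rats and 1 of 4 control rats, and the labels give no sex.

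A small share of the probe sets tested at the villus top passed the threshold. After quantile normalization, about as many of these were higher as lower. At an adjusted p under 0.05 (limma, Benjamini-Hochberg over all probe sets tested, two-sided), 269 of 24746 probe sets were called, or 1.09%. Of these, 131 were higher in iron-deficient rats (0.529%) and 138 were lower (0.558%). The 8 arrays did not overlap between the groups for 130 of the higher and 136 of the lower probe sets, where 6.34% of all probe sets were separated upward and 6.54% downward. With 1 probe set per gene, the brightest, 171 of 12407 genes were called (1.38%), 70 higher (0.564%) and 101 lower (0.814%). These shares over all genes are the background for every count of called list members given below. The share of calls that were higher depended on the scaling, at 48.7% after quantile normalization, 32.5% on the values as deposited and 18.8% after median centring. As deposited, the array of control rat 3 had a trimmed mean of 2875 intensity units, where the other arrays of these groups had about 2500. An unadjusted p under 0.05 (limma) was reached by 13.1% of all probe sets. The calls are therefore no measure of how much of the transcriptome changed.

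The number of calls rested heavily on single rats. It was 51 without iron-deficient rat 2, 106 without rat 1, 181 without rat 3 and 334 without rat 4. On the control side it was 11 without rats 1 and 2, 126 without rat 3 and 147 without rat 4. All 269 kept their direction in each of these fits. This is no test of them, because leaving out a rat cannot reverse groups that do not overlap, as in nearly all of the 269. Counting all 22 rats of the fit separately gave 842 calls, and leaving iron-repleted rat 3, whose villus top array stood apart, out of the shared estimate of the spread gave 629. With Xist as a covariate there were 141.

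**Figure D1:**
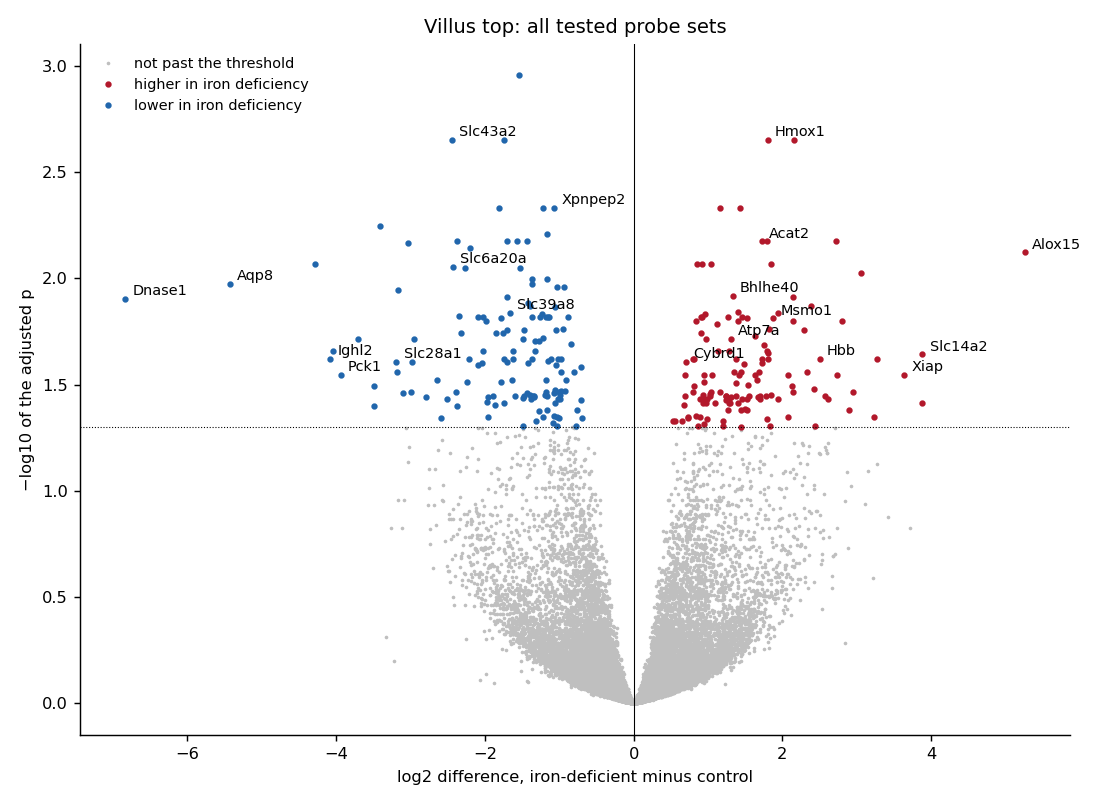
Log2 difference (iron-deficient minus control, x axis) against −log10 of the adjusted p (y axis) for the 24746 probe sets tested at the villus top, with the 131 higher in iron deficiency in red and the 138 lower in blue. Alox15 lies farthest to the right, at 5.26, and Dnase1 farthest to the left, at −6.84.

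Cybrd1, the reductase of the brush border, was higher in iron deficiency, while the ferrous iron transporter Slc11a2 was called at 1 of its 2 probe sets. Cybrd1 read 17.57, 17.49, 17.49 and 17.33 in iron-deficient rats, against 16.90, 16.93, 16.53 and 16.83 in control rats. Every iron-deficient rat was above every control rat, and the difference of 0.71 ± 0.15 (SE, n = 4 and 3) passed the limma test at an adjusted p of 0.0247. This is 1.63-fold on the scale with the added constant. Only 20 of the probe sets tested were brighter on average at the villus top, and whether Cybrd1 was near saturation was not tested.

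Slc11a2 had 2 probe sets that gave different pictures. The brighter one read 17.30, 17.18, 17.25 and 16.94 in iron-deficient rats, against 16.46, 16.40, 17.14 and 16.72 in control rats. These ranges overlapped, and the difference of 0.41 ± 0.16 did not pass (limma adjusted p = 0.239). The dimmer one read 15.84, 15.62, 16.16 and 14.89 in iron-deficient rats, against 14.05, 14.02, 14.51 and 14.12 in control rats. Here the groups were separate, and the transcript was higher by 1.41 ± 0.28 (limma adjusted p = 0.0158), or 2.65-fold. Which transcripts each probe set reads, and whether the brighter one was near saturation, were not tested.

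The exporter and its oxidase were not called. The brightest Slc40a1 probe set read 17.43, 17.29, 17.32 and 17.12 in iron-deficient rats, against 17.09, 17.04, 16.73 and 17.08 in control rats. The groups did not overlap, but the difference of 0.33 ± 0.13 did not pass (limma adjusted p = 0.267). A further Slc40a1 probe set gave 0.33 as well, and the dimmest gave 0.04. Heph averaged 16.79 ± 0.08 in iron-deficient rats (SD, n = 4) and 16.67 ± 0.10 in control rats (SD, n = 3), a difference of 0.12 ± 0.14. The brightest Slc40a1 probe set and Heph were about as bright as the brighter Slc11a2 probe set. Whether they were near saturation was not tested.

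The transferrin receptor Tfrc, which takes up iron from blood and whose mRNA is stabilized when cells lack iron, varied widely among rats. It read 13.74, 13.81, 14.93 and 11.61 in iron-deficient rats, against 12.15, 12.11, 14.64 and 13.74 in control rats. No group stood apart, and the difference was 0.02 ± 0.55 (limma adjusted p = 0.993). Of the 12 measured genes of iron storage and sensing, 0 were called in the limma fit, against 1.38% of all genes. Their median was 0.07, from −0.01 without iron-deficient rat 3 to 0.30 without iron-deficient rat 4. Among them were Bmp6, a signal of iron sufficiency in the liver, at 0.53 (adjusted p = 0.322), and Aco1, an iron-regulatory protein, at −0.55 (adjusted p = 0.321).

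Another metal importer moved the opposite way from Cybrd1. Slc39a8, which carries zinc, manganese and iron, read 11.60, 11.57, 11.10 and 11.47 in iron-deficient rats, against 13.39, 13.40, 12.69 and 13.20 in control rats. The groups were far apart, and it was lower by −1.66 ± 0.32 (limma adjusted p = 0.0145). By their brightest probe sets, Cybrd1 and Slc39a8 were called among 6 measured genes of apical iron uptake, 1 higher and 1 lower.

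The 250 bases before the annotated start of Slc11a2 and Cybrd1 are shown because both genes serve iron uptake at the brush border. They are from RefSeq (GRCr8), 5′ to 3′ along the gene. Capitals mark the core of the hypoxia response element, searched as ACGTG or GCGTG on both strands. ACGTG and its complement overlap where they form CACGTG, which is also an E-box. Slc11a2 has a second annotated start whose window held no match, and it is not shown.
Slc11a2 (chr7:133417789-133418038, minus strand): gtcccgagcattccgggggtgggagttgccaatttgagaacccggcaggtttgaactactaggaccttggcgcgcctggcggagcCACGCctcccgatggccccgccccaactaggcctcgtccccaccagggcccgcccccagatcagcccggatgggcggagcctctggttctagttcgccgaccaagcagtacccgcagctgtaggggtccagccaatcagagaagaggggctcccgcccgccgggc
Cybrd1 (chr3:76342343-76342592, plus strand): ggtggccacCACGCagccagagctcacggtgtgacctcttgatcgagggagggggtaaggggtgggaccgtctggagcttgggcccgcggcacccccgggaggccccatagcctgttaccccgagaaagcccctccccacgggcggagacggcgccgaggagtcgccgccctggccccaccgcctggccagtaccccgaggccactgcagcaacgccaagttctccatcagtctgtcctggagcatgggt
Each held 1 match, and 36.7% of all 33469 promoter windows of this length held at least 1. A match describes the letters and is no evidence of a site.

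The copper exporter Atp7a, which supplies copper to hephaestin and to the circulation, was higher in iron deficiency. It read 15.26, 15.16, 15.62 and 14.73 in iron-deficient rats, against 13.66, 13.77, 14.16 and 13.79 in control rats. The groups were well separated, and the difference was 1.31 ± 0.27 (limma adjusted p = 0.0193). A second probe set rose by 1.85 (adjusted p = 0.00858), and another gave 2.35 but did not pass (adjusted p = 0.0664). Atp7a was the only called gene of 8 measured for copper handling. Its chaperone partner Atox1 had a difference of −1.36 that did not pass (adjusted p = 0.0696).

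Heme oxygenase 1 (Hmox1), which opens the heme ring and frees its iron, gave one of the firmest differences. It read 13.31, 13.88, 13.71 and 14.44 in iron-deficient rats, against 11.49, 11.58, 12.53 and 12.03 in control rats. The lowest iron-deficient rat was above the highest control rat, and the difference was 1.81 ± 0.26 (limma adjusted p = 0.00223), or 3.49-fold. It passed under all 23 other settings tried. No other gene of 16 measured in heme handling was called. Abcg2, an exporter of porphyrins and drugs, came closest at 0.78 (adjusted p = 0.0506), and the heme and folate carrier Slc46a1 had a difference of −1.42 (adjusted p = 0.242).

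Zinc handling had 0 calls among 14 measured genes in the limma fit. The zinc exporter Slc30a1, which is induced by zinc in many cells, read 11.99, 12.03, 11.59 and 11.63 in iron-deficient rats, against 9.10, 9.58, 8.94 and 10.14 in control rats. These ranges were far apart, although the difference of 2.34 ± 0.63 did not pass (limma adjusted p = 0.0744).

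**Figure D2:**
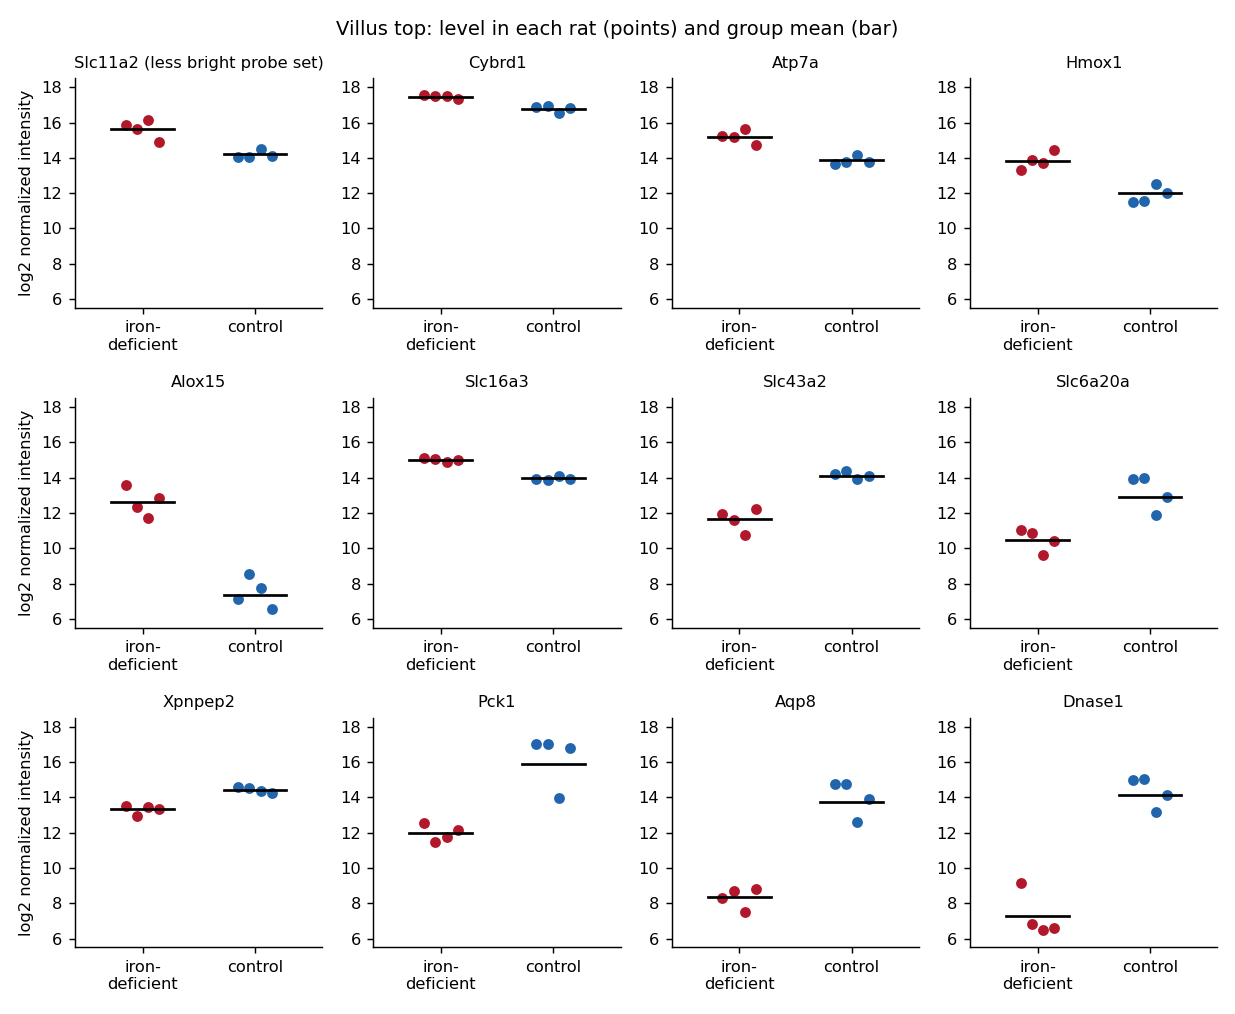
Log2 normalized intensity (y axis) of 12 called genes at the villus top in each of 4 iron-deficient rats (red, left) and 4 control rats (blue, right), with the group mean as a bar and control rats 1 and 2 averaged into 1 sample before the mean. The groups do not overlap in any of the panels, and control rat 3 is the lowest control for Pck1, Aqp8 and Dnase1.

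The largest rise at the villus top was in Alox15, a lipoxygenase that oxygenates arachidonic and other fatty acids. It read 13.56, 12.33, 11.74 and 12.84 in iron-deficient rats, against 7.12, 8.52, 7.72 and 6.53 in control rats. All control readings were dim, below the level of 8.99 that 40% of normalized values do not reach. The difference was 5.26 ± 0.90 (limma adjusted p = 0.00755), and it ranged from 4.21 to 5.47 with a larger or smaller added constant. Of 13 measured genes of lipoxygenase and prostaglandin synthesis, Lta4h, which makes leukotriene B4, was lower by −1.05 ± 0.23 (adjusted p = 0.0257), and the other 11 were not called.

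Other large rises were in genes with varied roles. Slc14a2, a urea transporter, was higher by 3.88 ± 0.82 (limma adjusted p = 0.0228), while 3 further probe sets of the gene gave 0.70, 0.82 and 2.29 and did not pass. Fntb, a subunit of protein farnesyltransferase, was higher by 2.42 and Ctla2a, a cysteine protease inhibitor in mice, by 2.34. Ctla2a read 16.12, 16.39, 16.37 and 15.73 in iron-deficient rats, against 13.08, 13.09, 14.28 and 14.08 in control rats, so the groups were separate. For Ube2b (3.87), Xiap (3.63), Pkia (3.27), Cop1 (2.89), Zfand4 (2.73), Asap1 (2.44) and C19h1orf131 (2.38), the called probe set was not the brightest of its gene. Their brightest probe sets gave 0.36, 0.94, −0.24, 0.07, −0.02, 1.24 and 0.36 and did not pass, so the probe sets of these genes disagree.

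Ligands of the EGF receptor included 1 called gene. Amphiregulin (Areg), a growth factor shed by epithelial cells, read 15.06, 14.99, 15.12 and 15.42 in iron-deficient rats, against 13.24, 13.06, 13.66 and 14.50 in control rats. The groups did not overlap, and the difference was 1.38 ± 0.31 (limma adjusted p = 0.0312). The other 10 measured ligands, receptors and regulators were not called, and the list's median was 0.76, or 0.48 without control rats 1 and 2.

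Several known targets of the hypoxia-inducible factors were higher. Of 31 measured hypoxia-inducible genes, 5 were called higher and 0 lower, against 0.564% and 0.814% of all genes, and the median was 0.39. The 5 were Bnip3 (mitophagy), Slc2a1 (glucose transporter GLUT1), Ddit4 (inhibitor of mTORC1), Slc16a3 (lactate exporter) and Pgk1 (glycolysis).

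Slc16a3 was the firmest of these. It read 15.13, 15.04, 14.90 and 15.01 in iron-deficient rats, against 13.94, 13.88, 14.09 and 13.95 in control rats. The spread within each group was far smaller than the gap, and the difference was 1.04 ± 0.18 (limma adjusted p = 0.00858). Bnip3 was higher by 1.76 ± 0.36 (adjusted p = 0.0207), Slc2a1 by 1.52 ± 0.36 (adjusted p = 0.0369), Ddit4 by 1.41 ± 0.27 (adjusted p = 0.0144) and Pgk1 by 0.93 ± 0.21 (adjusted p = 0.0355). Ddit4 read 13.01, 13.66, 13.90 and 13.35 in iron-deficient rats, against 11.97, 12.01, 12.18 and 12.05 in control rats.

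Other classical targets did not pass. Among them were Hk2 (1.53, adjusted p = 0.135), P4ha1 (1.49, adjusted p = 0.268), Egln3 (0.89, adjusted p = 0.133), Vegfa (0.37, adjusted p = 0.663) and Ldha (0.28, adjusted p = 0.422). The factors themselves did not pass, with Epas1 (HIF-2α) at 0.42 (limma adjusted p = 0.247) and Hif1a at 0.23 (adjusted p = 0.828). Both are known to be set mainly by protein stability. Bhlhe40, a repressor that hypoxia induces and a member of the circadian list, was higher by 1.33 ± 0.25 (limma adjusted p = 0.0121), and it was the only called gene of 17 in that list.

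The windows of 4 of these genes are shown as examples that hold the motif, with the same letters in capitals. The window of Slc16a3 held 0 matches and is not shown.
Bnip3 (chr1:203154963-203155212, minus strand): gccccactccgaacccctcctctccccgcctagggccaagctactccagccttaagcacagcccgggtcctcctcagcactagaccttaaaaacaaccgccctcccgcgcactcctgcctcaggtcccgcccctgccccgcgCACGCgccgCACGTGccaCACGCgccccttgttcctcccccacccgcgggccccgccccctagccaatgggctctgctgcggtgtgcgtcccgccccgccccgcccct
Slc2a1 (chr5:138002272-138002521, plus strand): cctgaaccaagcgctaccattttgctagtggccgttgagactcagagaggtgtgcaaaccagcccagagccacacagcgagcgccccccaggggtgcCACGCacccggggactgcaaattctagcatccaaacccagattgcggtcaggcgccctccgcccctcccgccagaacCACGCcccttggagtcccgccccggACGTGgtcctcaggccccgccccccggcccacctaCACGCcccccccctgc
Ddit4 (chr20:28437038-28437287, minus strand): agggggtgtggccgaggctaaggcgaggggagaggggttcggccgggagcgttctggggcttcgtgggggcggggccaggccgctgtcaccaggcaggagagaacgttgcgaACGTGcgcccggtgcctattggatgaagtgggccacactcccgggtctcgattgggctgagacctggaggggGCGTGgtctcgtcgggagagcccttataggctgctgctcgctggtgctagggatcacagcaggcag
Bhlhe40 (chr4:143174200-143174449, plus strand): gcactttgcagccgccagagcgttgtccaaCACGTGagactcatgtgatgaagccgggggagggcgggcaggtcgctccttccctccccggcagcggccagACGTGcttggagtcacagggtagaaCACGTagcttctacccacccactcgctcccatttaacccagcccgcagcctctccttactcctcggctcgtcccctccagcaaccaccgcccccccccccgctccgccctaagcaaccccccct
At least 1 match was present in 49 of 85 promoter windows of genes called higher (57.6%) and in 43 of 90 of genes called lower (47.8%), against 36.7% of all windows. For ACGTG alone, the shares were 21.2% for genes called higher, 17.8% for genes called lower and 16.6% for all windows. In the hypoxia list, 20 of 34 windows held a match to either core, as did 11 of 17 in the cholesterol list and 7 of 13 in the zinc list. Among genes with large falls, the windows of Aqp8, Klf15 and Dnase1 held 5, 4 and 2 matches, and those of Pck1 and Slc28a1 held 0. Genes with several annotated starts have several windows, and nothing follows from these counts about binding.

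Genes of cholesterol synthesis and its regulator SREBP2 leaned upward together. All 21 measured genes had a positive difference, with a median of 0.89, against −0.03 over all genes. Of these, 2 were called higher and 0 lower, against 0.564% and 0.814% of all genes. The mean level of the 21 genes was 13.81, 13.56, 13.64 and 13.05 in iron-deficient rats, against 11.89, 11.73, 13.06 and 12.74 in control rats. Iron-deficient rat 4 thus lay just below control rat 3. Msmo1, a sterol oxidase of the pathway, read 16.39, 16.31, 16.43 and 15.59 in iron-deficient rats, against 12.96, 12.86, 15.15 and 14.85 in control rats. The groups were separate, with control rats 1 and 2 far below control rats 3 and 4, and the difference was 1.88 ± 0.37 (limma adjusted p = 0.0154). Acat2, a thiolase that starts the pathway from acetyl-CoA, was higher by 1.72 ± 0.29 (adjusted p = 0.00669).

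Sqle, which makes squalene epoxide, showed the same spread among controls, with 14.46, 14.26, 14.60 and 13.46 in iron-deficient rats, against 11.11, 11.56, 13.69 and 12.66 in control rats. The highest control overlapped the lowest iron-deficient rat, and the difference of 1.63 did not pass (adjusted p = 0.055). Without control rats 1 and 2 the list's median was 0.57. The 11 pancreas markers were also highest in control rats 1 and 2, at 11.38 and 11.39 against 8.66 and 8.87 in control rats 3 and 4, and their part was not tested. Srebf2 itself was at 0.08 (adjusted p = 0.94). Genes of fatty acid synthesis had 0 calls among 12 in the limma fit and a median of 0.36.

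The window of Msmo1 is shown for its repeated CCAAT boxes, in capitals and searched on both strands, a motif known to be bound by NF-Y beside SREBP2.
Msmo1 (chr16:29746863-29747112, plus strand): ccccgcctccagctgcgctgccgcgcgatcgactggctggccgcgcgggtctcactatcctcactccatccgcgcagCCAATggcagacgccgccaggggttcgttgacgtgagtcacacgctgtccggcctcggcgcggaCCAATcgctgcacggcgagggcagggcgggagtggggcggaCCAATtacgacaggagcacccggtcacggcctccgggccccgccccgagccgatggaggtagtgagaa
It held 3 matches. A CCAAT box was present in 14 of 17 windows of the cholesterol list (82.4%), against 34% of all windows. The sterol regulatory element TCACNCCAC was found in 0 of the 17 and in 0.974% of all windows.

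**Figure D3:**
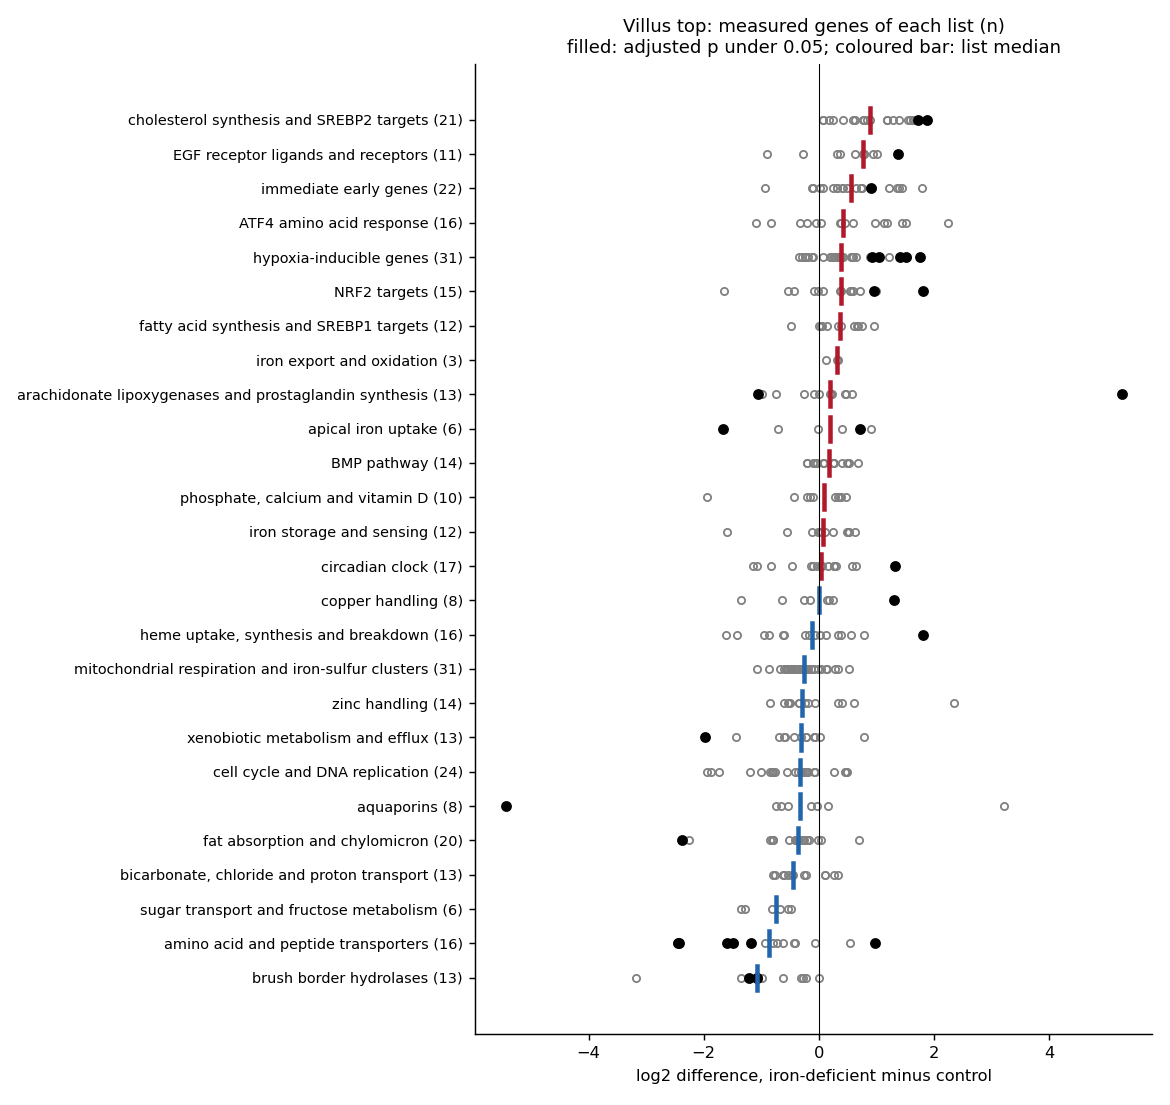
Log2 difference (iron-deficient minus control, x axis) of every measured gene, by its brightest probe set, in 26 gene lists (rows, with the number of genes), where filled points passed the test and the coloured bar is the list median. Medians run from 0.89 for cholesterol synthesis to −1.07 for brush border hydrolases.

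The digestive and absorptive genes of the villus top leaned the other way. Of 13 measured brush border hydrolases, 12 had a negative difference, 3 were called lower and 0 higher, against 0.814% and 0.564% of all genes, and the median was −1.07, against −0.03 over all genes. It was −0.68 without iron-deficient rat 3. Xpnpep2, a membrane peptidase that cleaves before proline, read 13.54, 12.97, 13.45 and 13.37 in iron-deficient rats, against 14.60, 14.54, 14.38 and 14.26 in control rats. The groups did not overlap, and it was lower by −1.07 ± 0.16 (limma adjusted p = 0.00466). Anpep (aminopeptidase N) was lower by −1.22 ± 0.30 (adjusted p = 0.045) and Ace (angiotensin-converting enzyme) by −1.07 ± 0.24 (adjusted p = 0.0348). A second Ace probe set gave −0.68 and did not pass (adjusted p = 0.182).

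The disaccharidases had differences of the same sign that did not pass. Treh (trehalase) had −1.09 (adjusted p = 0.0531) and Si (sucrase-isomaltase) had −0.99 (adjusted p = 0.242). Si read 16.32, 16.40, 15.08 and 16.31 in iron-deficient rats, against 17.16, 17.23, 16.77 and 17.09 in control rats, with rat 3 the lowest in each group. Alkaline phosphatase (Alpi) had a difference of 0.01 ± 0.12 (adjusted p = 0.986). The mean of the 11 enterocyte markers, given above, was also lower in every iron-deficient rat than in any control rat. The gap was small, with 16.65 in the highest iron-deficient rat and 16.67 in the lowest control rat, and the markers' median difference was −0.27. Anpep, Si and Alpi belong to both lists, and the part of the markers in these differences was not tested. Of those markers, Anpep and villin were called. Villin (Vil1), the actin-bundling protein of microvilli, was lower by −0.71 ± 0.15 (limma adjusted p = 0.0262).

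Several amino acid transporters were lower. Of 16 measured, 5 were called lower and 1 higher, against 0.814% and 0.564% of all genes, 14 had a negative difference, and the median was −0.87, against −0.03 over all genes. Slc43a2 (LAT4), which lets neutral amino acids out across the basolateral membrane, read 11.96, 11.62, 10.77 and 12.24 in iron-deficient rats, against 14.22, 14.35, 13.90 and 14.10 in control rats. The gap was wide, and the difference of −2.45 ± 0.34 (limma adjusted p = 0.00223) passed under all 23 other settings. A dimmer Slc43a2 probe set was lower by −3.04 (adjusted p = 0.00679).

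Other basolateral routes were lower too. Slc16a10, the aromatic amino acid exporter TAT1, was lower by −1.59 ± 0.37 (limma adjusted p = 0.0359) and Slc7a8 (LAT2) by −1.49 ± 0.35 (adjusted p = 0.0365). Slc7a7, the cationic amino acid exchanger y+LAT1, read 14.24, 14.01, 14.17 and 14.62 in iron-deficient rats, against 15.82, 15.93, 15 and 15.40 in control rats, and was lower by −1.17 ± 0.21 (adjusted p = 0.0101). Their shared heavy chain Slc3a2, partner of Slc7a7 and Slc7a8, had a difference of −0.94 that did not pass (adjusted p = 0.0644).

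At the brush border, Slc6a20a, which takes up proline, read 11.03, 10.87, 9.60 and 10.41 in iron-deficient rats, against 13.93, 13.96, 11.87 and 12.89 in control rats. The groups were separate, with rat 3 lowest in each, and it was lower by −2.43 ± 0.43 (limma adjusted p = 0.00884). A second probe set of Slc6a20a gave −1.40 and did not pass (adjusted p = 0.123). The peptide transporter Slc15a1 had −1.47 (adjusted p = 0.153) and the proton-coupled transporter Slc36a1 had −2.47 (adjusted p = 0.0665). Slc38a2 (SNAT2), which starved cells induce, was the exception, higher by 0.98 ± 0.23 (adjusted p = 0.0369).

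Sugar transport and fructose metabolism had 0 calls in the limma fit, although all 6 measured genes had a negative difference and the median was −0.75. Ketohexokinase (Khk), the first enzyme of fructose breakdown, came closest at −1.29 ± 0.32 (adjusted p = 0.0518). The fructose transporter Slc2a5 had −1.36 (adjusted p = 0.236), and the glucose transporter Slc5a1 had −0.49 (adjusted p = 0.593). In fat absorption, 18 of 20 genes had a negative difference and 1 was called, the sterol exporter Abcg8, lower by −2.38 ± 0.57 (limma adjusted p = 0.0398). Its partner Abcg5 had −2.25 (adjusted p = 0.145). Fabp1 and Fabp2, the abundant fatty acid binding proteins, were at −0.02 and −0.27 and did not pass.

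The deepest falls were in genes of other functions. Dnase1, a secreted endonuclease, read 9.17, 6.84, 6.51 and 6.62 in iron-deficient rats, against 15, 15.05, 13.18 and 14.16 in control rats. It was bright in every control and dim in 3 iron-deficient rats, and the difference was −6.84 ± 1.27 (limma adjusted p = 0.0125). The size depended on the added constant, from −7.09 to −5.66. Aqp8, a water channel, read 8.32, 8.72, 7.49 and 8.79 in iron-deficient rats, against 14.75, 14.75, 12.61 and 13.92 in control rats. All iron-deficient readings were dim, and the difference was −5.43 ± 0.98 (adjusted p = 0.0106), from −5.53 to −4.80 with the constant. By their brightest probe sets, the other 7 measured aquaporins were not called.

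Pck1, the cytosolic enzyme of gluconeogenesis, was lower in iron deficiency. It read 12.57, 11.46, 11.73 and 12.18 in iron-deficient rats, against 17.03, 17.02, 13.96 and 16.78 in control rats. Control rat 3 was far below the other controls and still above every iron-deficient rat, and the difference was −3.94 ± 0.87 (limma adjusted p = 0.0284). Klf15, a transcription factor that responds to fasting and glucocorticoids, was lower by −1.96 ± 0.46 at its brightest probe set (adjusted p = 0.0361) and by −3.41 at a dimmer one, while another, dim probe set gave −0.11.

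Other genes with large falls had separate roles. Slc28a1, which takes up pyrimidine nucleosides, was lower by −3.19 ± 0.69 (limma adjusted p = 0.0247), and Slc27a2, an activator and carrier of very long fatty acids, by −2.95 ± 0.60 (adjusted p = 0.0193). The glutathione transferases Gsta3 and Gstt3 were lower by −2.99 and −2.5, and the esterase Aadac by −2.65. Aadac read 11.51, 11.07, 13.07 and 11.12 in iron-deficient rats, against 14.35, 14.26, 14.36 and 14.36 in control rats. Cyp3a18, a cytochrome P450, was lower by −1.97 (adjusted p = 0.0384), although iron-deficient rat 4 overlapped the controls. It was the only call among 13 measured genes of xenobiotic metabolism and efflux, whose median was −0.31 and ran from −0.58 without iron-deficient rat 4 to −0.14 without control rats 1 and 2.

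Genes of mitochondrial respiration and iron-sulfur clusters had small differences, mostly below 0. Of 31 measured, 25 had a negative difference, 0 were called in the limma fit, and the median was −0.26. The groups did not overlap for 13 of them, all lower, where 6.54% of all probe sets were separated downward. Their mean level was 13.82, 13.95, 14.01 and 13.99 in iron-deficient rats, against 14.11, 14.21, 14.34 and 14.14 in control rats. Uqcrc1, a core subunit of complex III, had −0.86 (adjusted p = 0.0806). NRF2 targets had 2 genes called higher of 15, against 0.564% of all genes, Hmox1 and the sulfiredoxin Srxn1, which was higher by 0.96 ± 0.18 (limma adjusted p = 0.0148). Of 22 immediate early genes, only Klf4, a factor of mature epithelium, was called, higher by 0.91 ± 0.18 (adjusted p = 0.0152). The lists for ATF4 targets, the BMP pathway, cell cycle, phosphate and calcium, and bicarbonate and chloride transport had 0 calls in that fit.

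Cell type markers moved with the groups in part. In bulk sections, fewer cells of a type and less RNA per cell cannot be told apart. All 8 measured B and plasma cell markers had a negative difference, with a median of −1.80, and 2 were called lower, against 0.814% of all genes. Their mean level was 10.13, 10.20, 10.96 and 9.48 in iron-deficient rats, against 11.72, 11.73, 13.10 and 11.78 in control rats, with no overlap. Pou2af1, a coactivator of B cells, was lower by −3.11 ± 0.71 (limma adjusted p = 0.0348), and Ighl2 by −4.08 ± 0.86 (adjusted p = 0.024). The joining chain of secreted antibodies, Jchain, had −3.03 (adjusted p = 0.0735). T cell markers had a median of −0.66 with 0 of 13 called.

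Red blood cell markers were higher in 3 of the 4 iron-deficient rats. Their mean level over 4 genes was 12.66, 11.78, 10.15 and 12.31 in iron-deficient rats, against 9.62, 9.99, 10.40 and 10.05 in control rats. Hbb, the beta chain of hemoglobin, read 16.74, 16.08, 15 and 16.97 in iron-deficient rats, against 13.58, 13.55, 13.68 and 13.84 in control rats, and was higher by 2.5 ± 0.53 (limma adjusted p = 0.024). Alas2, the erythroid enzyme of heme synthesis, had 2.60 (adjusted p = 0.0661).

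Goblet cell markers had 2 genes called higher of 8, against 0.564% of all genes. They were the trefoil factor Tff3, higher by 0.92 ± 0.18 (limma adjusted p = 0.0152), and the lectin Zg16, higher by 0.56 ± 0.14 (adjusted p = 0.047). The median of the 8 was 0.30, and 2 of them had a negative difference, down to −1.18. The mean level of the 8 overlapped, at 14.54 to 15.15 in iron-deficient rats and 14.31 to 14.80 in control rats. Tff1, a trefoil factor of gastric mucosa, was higher by 2.14 ± 0.42 (adjusted p = 0.0158), while the other 3 measured Brunner gland and gastric markers were not called. Markers of exocrine pancreas stood at 8.95, 7.92, 8.41 and 7.99 in iron-deficient rats, against 11.38, 11.39, 8.66 and 8.87 in control rats, highest in the near-identical pair. Villus tip markers overlapped, at 14.80 to 15.41 in iron-deficient rats and 14.80 to 15.36 in control rats. The part of these cell types in the results above was not tested.

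**Figure D4:**
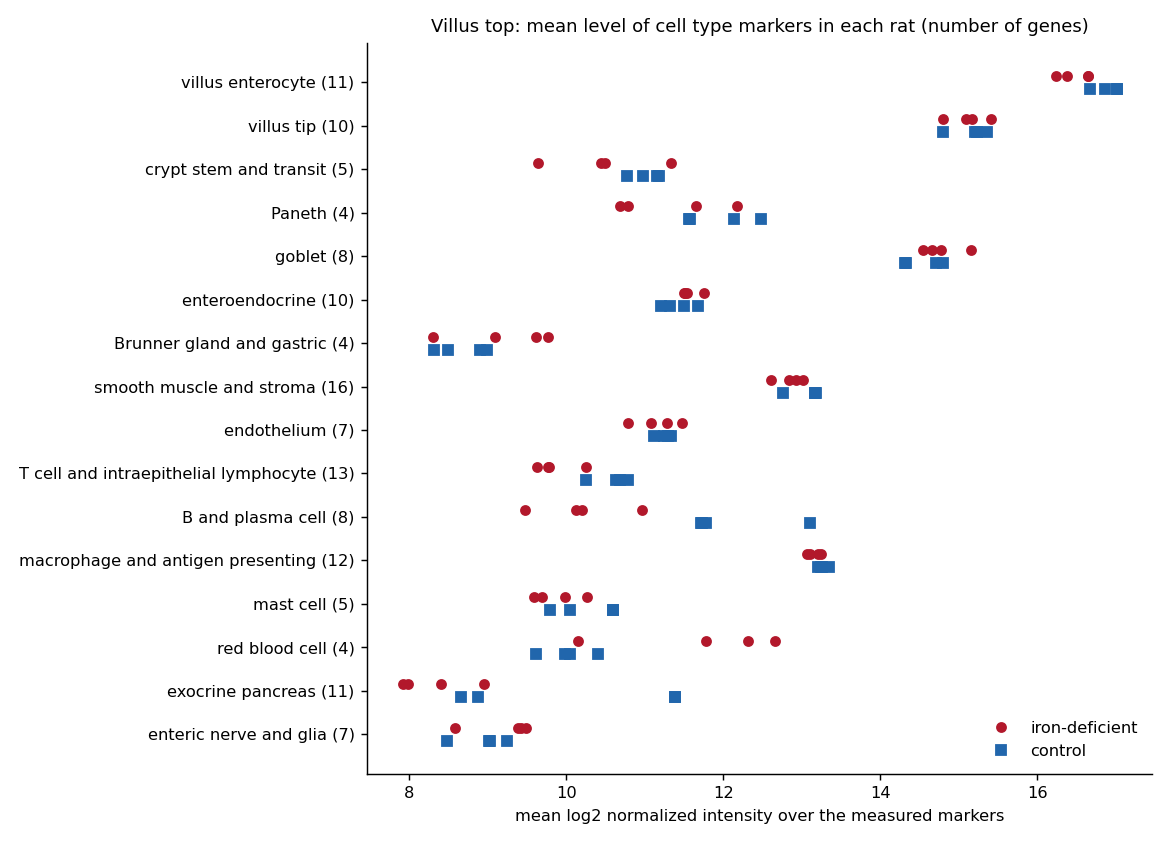
Mean log2 normalized intensity (x axis) over the measured markers of 16 cell types (rows, with the number of genes) at the villus top in each iron-deficient rat (red circles) and control rat (blue squares). B and plasma cell markers do not overlap between the groups, red blood cell markers are high in 3 iron-deficient rats, and pancreas markers are high in control rats 1 and 2.

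At the villus bottom the same rats had 0 probe sets called in the limma fit, where 3328 had an unadjusted p under 0.05, and 0 were called for a difference between the effects of the segments, where 2345 had an unadjusted p under 0.05. When iron-repleted rat 3 was left out, the test of that difference gave 133 calls. The median standard error was 0.48 at the top and 0.36 at the bottom.

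Cybrd1, Slc11a2 and Slc40a1 had larger differences at the bottom than at the top, while Slc39a8 differed by −0.08 at the bottom and −1.66 at the top. Cybrd1 differed by 3.55 at the bottom, with 16.16, 16.07, 16.14 and 13.42 in iron-deficient rats, against 11.94, 11.70, 11.86 and 12.01 in control rats. Control rats thus read lower at the bottom than at the top, and iron-deficient rat 4 was well below the other iron-deficient rats. The brighter Slc11a2 probe set differed by 2.39 at the bottom and 0.41 at the top, and the brightest Slc40a1 one by 1.67 and 0.33. The dimmer Slc11a2 probe set, which was called at the top, differed by 2.63 and 1.41. Whether the bright probe sets of Cybrd1, Slc11a2 and Slc40a1 were near saturation at the top was not tested. The differences between the segments did not pass (limma adjusted p = 0.28 for Cybrd1, 0.411 and 0.507 for the brighter and dimmer Slc11a2 probe sets, 0.453 for Slc40a1 and 0.235 for Slc39a8). Areg differed by 3.43 at the bottom, Slc16a3 by 2.29 and Hmox1 by 2.08, and their segment differences did not pass (limma adjusted p = 0.367, 0.574 and 0.948). Areg read 5.94, 8.56, 5.88 and 9 in control rats at the bottom, mostly under the dim level of 8.99, and Slc16a3 averaged 8.99 there, which limits both sizes. Without the bottom array of control rat 3, described below, Areg was 2.68, Slc16a3 2.23, Hmox1 1.86, Cybrd1 3.53, the brighter Slc11a2 2.09 and Slc40a1 1.27.

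Of the 131 probe sets called higher at the top, 112 had a positive difference at the bottom, with a median of 1.42 at the top and 0.56 at the bottom. Of the 138 called lower, 61 had a negative difference there, with a median of −1.45 at the top and 0.05 at the bottom. Selection at the top favours large differences there, so these medians do not compare the size of the effect between the segments. The bottom array of control rat 3 stood apart, with stroma markers at 15.65 and enterocyte markers at 13.19, against 13.17 to 14.18 and 14.27 to 15.31 in the other control rats. Without it, 107 of the 138 had a negative difference at the bottom, with a median of −0.26.

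The brush border hydrolases show the same dependence. Their median at the bottom was 1.07, against −1.07 at the top, but 0.47 without control rat 3 and −0.36 against control rats 1 and 2 alone. For sugar transport the 3 bottom medians were 1.25, 0.59 and −0.22. The cholesterol list was positive at the bottom in each case, at 1.22, 1.13 and 0.86.

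**Figure D5:**
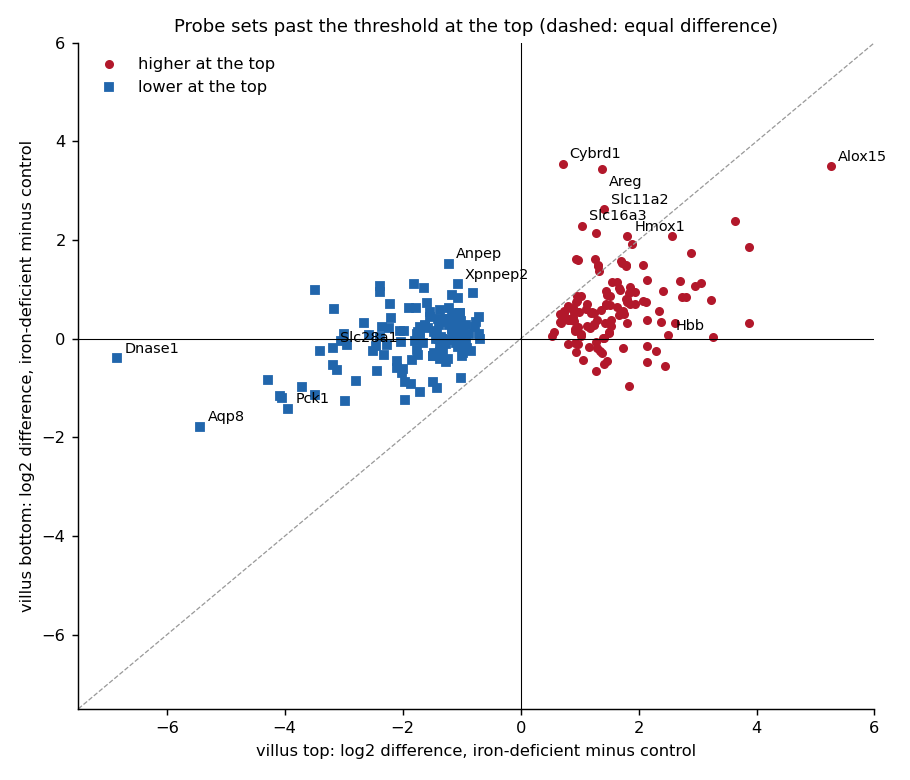
Log2 difference (iron-deficient minus control) at the villus top (x axis) against the villus bottom (y axis) for the 269 probe sets called at the top, with all control rats included and equal differences on the dashed line. Those higher at the top are mostly above 0 at the bottom (112 of 131), those lower at the top scatter around 0 (61 of 138 below), and Cybrd1 and Areg lie above the dashed line. Selection by the call at the top favours large differences on the x axis.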

How the data were processed

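Affymetrix rat arrays were hybridized with biotin-labelled villus RNA, per the labels' protocols. The deposited values are linear intensities. How they were summarized from probes is not given in the sources used here. The values show that the authors scaled each array to a trimmed mean of about 2500 intensity units (2875 for the arrays of control rat 3 and of 1 Belgrade rat given iron), which hides any change common to most transcripts. The number of arrays limits the precision.

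From these, 57 control probe sets were left out and 43.5 intensity units (the 10th percentile) were added before log2. The 44 villus arrays were quantile normalized, and probe sets above the 40th percentile of their array on at least 3 villus top arrays were kept. The deposited annotation gave 1 gene symbol for 20826 probe sets, several for 436 and none for 9780, updated through Entrez identifiers to RefSeq. Groups were compared with limma 3.58.1 (lmFit, eBayes with trend, R 4.3.3), in 1 fit of the 22 villus top arrays in 6 groups that share the spread. Near-identical arrays (robust SD under 0.2) were averaged, which left 20 samples. Differences between segments were tested on each rat's top minus bottom. The procedure was tested on simulated data.

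The rats, the 42 gene lists (598 genes, 496 measured) and the tests were chosen with earlier results of these data known. Named genes are the iron carriers, the 12 largest called rises and falls with 1 symbol and no overlap, and up to 4 called members per list (2 by smallest p where none was called). Other genes named were chosen after their values were seen. Alternatives changed the normalization, constant, filter, samples, trend, replicate block and Xist covariate. Promoter windows came from RefSeq (GRCr8), matched for 77 of 94 named genes. The labels do not pair rats across groups by number, and correlations of same-number deviations over all probe sets tested were −0.05 to 0.09.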

Additional observations from a re-analysis of the deposited data

Results flagged for a closer look

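In 141 comparisons of probe sets and list means, 10 had 1 iron-deficient rat whose gap to the other three was, as a share of the range, at or above Dixon's 95% critical value. Chance flags about 1 in 20 groups. Rat 4 accounts for 5 of them. Pkia was 8.69 in rat 4 and 9.55 to 9.65 in the other iron-deficient rats. Slc28a1 was 10.38 in rat 4 and 9.03 to 9.18 in the others. Uqcrc1 was 15.68 in rat 4 and 14.69 to 14.86 in the others. The cholesterol genes Msmo1 and Acat2 were 15.59 and 12.44 in rat 4, against 16.31 to 16.43 and 13.22 to 13.31 in the other iron-deficient rats. In rat 3, Atp1b1 was 16.39 (others 16.65 to 16.68), the mean of the sugar transport genes was 12.96 (others 13.86 to 13.89) and the mean of the nerve and glia markers was 8.58 (others 9.39 to 9.49). Dnase1 was 9.17 in rat 1 and 6.51 to 6.84 in the others. The mean of the enteroendocrine markers was 11.75 in rat 2 and 11.50 to 11.54 in the others.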

How the results depend on the processing

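All 269 called probe sets kept their direction under the 23 other settings (260 of them were measured with the filter at the 60th percentile), and none of 53 named called probe sets reversed. They were chosen on these same arrays and nearly all had no overlap between the groups. Their direction could thus hardly reverse, and this is no independent support. The number of calls moved by more than 1.5 times in many settings: 149 after median centring, 532 with 2 groups only, 629 without iron-repleted rat 3, 842 with all rats separate, 16 without the trend and 141 with Xist as covariate. Of listed genes, 36 were called (20 higher, 16 lower). The same settings gave 17, 68, 77, 3 and 23 listed genes for median centring, no repleted rat 3, all rats separate, no trend and Xist. With the rat number as a replicate block (all rats separate, 2 groups) 1158 probe sets and 92 listed genes were called, against 1353 and 92 without the block. The labels give no such pairing, and same-number deviations over all probe sets tested correlated at −0.05 to 0.09. The mean of the 17 circadian genes, picked after the values were seen, ran in the same order of rats in both groups. It was 11.56, 11.41, 10.57 and 10.96 in iron-deficient rats and 11.54, 11.43, 10.71 and 11.21 in control rats. Whether rats of the same number shared a batch was not tested. Leaving out 1 sample at a time gave 11 to 334 probe sets and 2 to 49 listed genes. Settings chosen after seeing the data were array weights (1814 and 112), iron-deficient rats 1 and 2 averaged (68 and 14), the fit without a block, and the bottom values without control rat 3. For the difference between segments, the count of 0 became 5 with all rats separate, 1 with 2 groups, 8 after median centring, 0 to 1 when 1 sample was left out and 133 without repleted rat 3 (chosen after seeing the data). Reversals touched only 3 uncalled probe sets. The dimmest Slc40a1 one (0.04) was −0.05 as deposited, −0.04 with all rats separate, with or without the block, −0.12 with iron-deficient rats 1 and 2 averaged, and −0.27 to 0.43 with 1 sample left out. The brightest Tfrc one (0.02) was −0.06 as deposited, −0.01 after median centring, −0.07 with rats 1 and 2 averaged and −0.67 to 0.65 with 1 sample left out. The other Tfrc one (0.72) was −0.01 without control rats 1 and 2, and up to 1.29 with another sample left out. Other causes of these moves were not tested. Group means under the dim level of 8.99 limit the size of Alox15, Dnase1 and Aqp8. The same holds for the called probe sets of Slc14a2, Ube2b, Pkia, Cop1, Zfand4, Asap1, C19h1orf131 and Pou2af1, and for the dimmer called one of Klf15. With a smaller or larger constant, Pkia was 3.72 or 1.80, Ube2b 4.31 or 2.36 and Pou2af1 −3.39 or −1.98.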

Other observations

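The following called genes of amino acid and dipeptide metabolism were picked after their values were seen, because they were lower, and stand for no wider group. Cndp1 and Cndp2, which cleave carnosine and other dipeptides, were lower by −2.35 and −1.42 (limma adjusted p = 0.015 and 0.0131). Cndp1 read 12.74, 12.20, 12.49 and 11.98 in iron-deficient rats, against 14.90, 14.93, 14.39 and 14.82 in control rats, with no overlap. The dipeptidase Dpep1 was lower by −1.64 and the acylase Acy1 by −1.01. Otc and Aldh18a1, which stand in the making of citrulline and of ornithine and proline in enterocytes, were lower by −1.49 and −1.44. Glud1, Got1 and Gpt, which handle glutamate and its amino group, were lower by −0.84, −0.93 and −0.80. Glud1 read 14.02, 13.90, 14 and 13.98 in iron-deficient rats, against 14.81, 14.81, 14.80 and 14.84 in control rats.

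Gene families picked by symbol after the values were seen held more calls downward than upward. Of 260 measured solute carriers, 15 were lower (5.77%) and 4 higher (1.54%), against 0.814% and 0.564% of all genes. Of 22 glutathione transferases 4 were lower and of 17 aldehyde dehydrogenases 4 were lower, with 0 higher in both families (limma). Some of the smallest p-values belonged to single genes. The citrate carrier Slc13a2 was lower by −1.54 (adjusted p = 0.00111), the inflammasome sensor Nlrp6 by −1.75 (adjusted p = 0.00223) and the peptide hormone uroguanylin (Guca2b) by −2.38 (adjusted p = 0.00669). The protease cathepsin E (Ctse) was higher by 2.15 (adjusted p = 0.00223), with 15.22, 16.00, 15.23 and 15.75 in iron-deficient rats, against 13.19, 13.16, 13.42 and 13.60 in control rats. The water channel Aqp4 read 13.97, 14.50, 14.37 and 6.73 in iron-deficient rats, against 9.37, 8.70, 8.86 and 9.61 in control rats, so that rat 4 alone departed from the others, and its difference of 3.22 did not pass (adjusted p = 0.258).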
